A study of Mus musculus with 6 samples.

Results

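The vesicle budding machinery is the set of proteins that shape small vesicles on endosomes and at the cell surface, cut them off and carry them to release. Its transcripts were read here in 6 mouse hearts, 3 from mice whose Arrdc4 gene was knocked out with CRISPR-Cas9 and 3 from wild-type mice, all of the C57BL/6 strain, with no treatment named in the labels. The set was named gene by gene as 45 genes in 10 role groups, and 44 of them were found among the 49315 genes of the count table by mouse Ensembl identifier. The remaining member, the ESCRT-I subunit Vps28, was not analysed here. Of the 44 genes, 43 passed a filter on low counts and were tested, and the tetraspanin Tspan8 did not pass. The sources used here give no age, sex, litter or deleted exon, and do not say how many founder lines the knockout came from. Each heart gave 1 RNA sequencing library, named KO1, KO2 and KO3 for the knockout hearts and WT1, WT2 and WT3 for the wild-type hearts.

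The core of this machinery is ESCRT, a chain of complexes that works in sequence. ESCRT-0 gathers ubiquitin-tagged cargo on the endosome, ESCRT-I and ESCRT-II deform the membrane, ESCRT-III polymerises into filaments that close the vesicle neck, and the ATPase VPS4 takes the filaments apart. Vesicles that bud into an endosome are freed as exosomes when that endosome fuses with the cell surface, a route that also draws on the syndecan-syntenin-ALIX bridge, tetraspanins, Rab and Arf GTPases, and ceramide made by neutral sphingomyelinases. Arrdc4 is an alpha-arrestin, an adaptor that brings NEDD4-family ubiquitin ligases to membrane proteins. Its relative Arrdc1 recruits TSG101 to buds at the cell surface, and Arrdc4 itself has been tied to vesicle release in other tissues. Setting knockout hearts against wild-type hearts asks whether transcripts of the machinery differ in level where Arrdc4 is missing.

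The libraries summed to between 31529317 and 41036626 counts in knockout hearts and between 29974501 and 37518160 in wild-type hearts. Arrdc4 had 5, 1 and 2 reads in KO1, KO2 and KO3, against 349, 307 and 281 reads in WT1, WT2 and WT3, which checks the genotype labels. Its log2 fold change, knockout over wild type, was -6.93 (SE 0.36, adjusted p = 0.00226, edgeR quasi-likelihood test), and it was the 1 gene called among 14508 tested. Without KO3 its adjusted p was 0.0519 in edgeR and no gene was called. KO2 and WT3 stood apart from the other 4 hearts on the first principal component of all tested genes, at 44.9 and 43.4 against -39.2 to 1.79, and that component held 57.7% of the variance. The label of heart was checked against defining markers: the 8 cardiomyocyte markers summed to 60447 to 69915 CPM (counts scaled to a common library size) in knockout hearts and 60352 to 66922 CPM in wild-type hearts. Of the 5 atrial markers, Nppa stood at 58.2 to 122.8 CPM in knockout and 81.7 to 127.0 CPM in wild-type hearts. Myl4, Myl7, Sln and Bmp10 were each under 2 CPM in every heart, and Myl7, Sln and Bmp10 were at 0 in at least 1.

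Nearly all of the machinery was transcribed in these hearts, over a wide range of levels. Levels between genes were compared as CPM per kilobase of annotated exon, averaged over all 6 hearts. On this scale 38 of the 43 tested genes lay above the median of all tested genes, and their own median was 10.6, against 2.47 for all tested genes. The tetraspanin Cd151, a partner of laminin-binding integrins, was highest at 83.1 (74.1 to 99.8 across hearts). Cd81, a tetraspanin used as an exosome marker, was next at 80.1 (76.7 to 83.2), and the ranges of the pair overlapped. The ESCRT-III subunit Chmp2a followed at 71.8 with the widest range of these, 51.6 to 99.8. Chmp4b, the main filament-forming subunit of ESCRT-III, and Flot1, a scaffold of flat membrane domains, stood at 54.9 and 54.3.

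The lowest levels included both Rab27 paralogs and Smpd3. Rab27a and Rab27b, the GTPases that dock endosomes at the cell surface before exosome release, had length-scaled levels of 0.520 and 0.184. Smpd3, the neutral sphingomyelinase best known for exosome formation, was at 0.265, while Smpd2, another neutral sphingomyelinase, was at 5.90. Tspan8, a tetraspanin of epithelia, was at 0.113 and had 7, 5 and 5 reads in KO1 to KO3, against 11, 5 and 7 reads in WT1 to WT3. These 4 genes, Rab27a, Rab27b, Smpd3 and Tspan8, were the members under 1 CPM per kilobase. Within ESCRT-II, Vps25 was at 1.29, against 10.9 for Vps36 and 9.41 for Snf8, its partners in the same complex. Annotated exons of Ramp2 cover 67.2% of Vps25's exon bases on the same strand, so its reads could have been counted elsewhere and its level is uncertain.

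**Figure D1:**
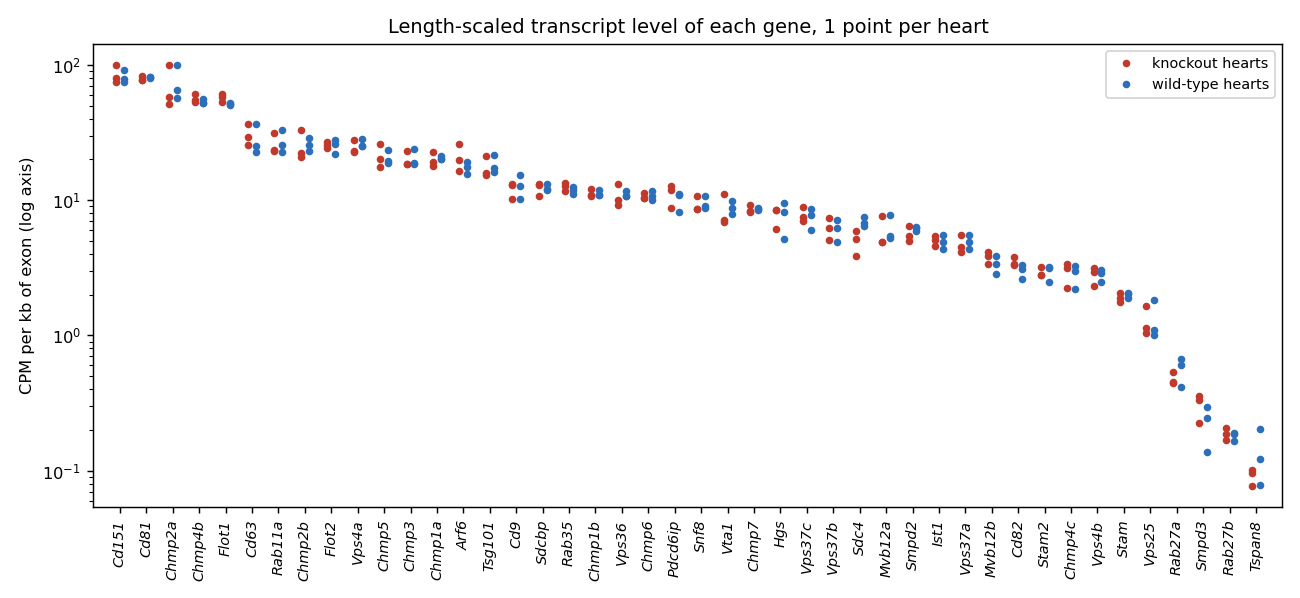
Length-scaled level (CPM per kilobase of exon, log axis) of the 44 genes found in the table, ordered by mean, with 1 point for each of 3 knockout hearts (red) and 3 wild-type hearts (blue). Levels run from 83.1 for Cd151 to 0.113 for Tspan8, and the points of both genotypes lie over each other for nearly every gene.

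Paralogs differed in length-scaled level, and the size of each ratio rests on the annotated exon lengths. The ATPase gene Vps4a exceeded Vps4b by a ratio of length-scaled levels of 7.19, 12.0 and 7.78 in KO1 to KO3, against 8.72, 8.26 and 11.5 in WT1 to WT3. The highest ratios were those of KO2 and WT3. Chmp2a exceeded Chmp2b by 2.46, 3.01 and 2.61 in knockout hearts, against 2.55, 2.47 and 3.44 in wild-type hearts. Chmp1a, which like Chmp1b recruits VPS4 to the filament, exceeded it by 1.75, 1.85 and 1.67 in knockout hearts, against 1.70, 1.85 and 1.96 in wild-type hearts. Flot1 exceeded Flot2, its partner in the same scaffold, by 2.39, 2.38 and 1.96 in knockout hearts, against 2.01, 1.81 and 2.34 in wild-type hearts. Stam, an ESCRT-0 partner of HRS, was the lesser of its pair in every heart. Its ratio to Stam2 was 0.644, 0.641 and 0.673 in knockout hearts, against 0.629, 0.658 and 0.758 in wild-type hearts. The ratio of Mvb12a to Mvb12b, alternative ESCRT-I subunits, was 1.19, 2.25 and 1.28 in knockout hearts, against 1.55, 1.40 and 2.71 in wild-type hearts, with KO2 and WT3 again on top. Rab27a exceeded Rab27b by 2.17, 3.18 and 2.39 in knockout hearts, against 2.19, 4.05 and 3.25 in wild-type hearts. Without division by length, Mvb12a averaged 17.8 CPM in knockout and 18.8 CPM in wild-type hearts, below Mvb12b at 33.0 and 29.4 CPM. On that scale Rab27a averaged 1.85 CPM against 1.999 CPM for Rab27b in knockout hearts, and 2.18 against 1.93 CPM in wild-type hearts. The direction of these ratios thus depends on the exon lengths used. Smpd2 exceeded Smpd3 by 14.1, 24.2 and 19.5 in knockout hearts, against 20.1, 25.3 and 46.5 in wild-type hearts, and the widest of these ratios rests on 24 reads of Smpd3 in WT3. The knockout and wild-type ratios overlapped in all 8 pairs. With 3 hearts against 3 an exact two-sided permutation test of such a ratio cannot fall under 0.10, so none is given.

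No gene of the machinery passed the test between genotypes. Of 43 tested, 0 were called higher in knockout hearts, beside 0.00% of all tested genes, and 0 were called lower, beside 0.00689%. DESeq2 and limma-voom also called 0 members. At an unadjusted p under 0.05 edgeR held 1 member, Sdc4, where 1.23% of all tested genes had such a p. Knockout values were higher for 20 members and lower for 23, and the median log2 fold change was -0.01, beside 0.01 over all tested genes. That split turned on single hearts. It was 28 higher and 15 lower without KO1, 15 and 28 without KO2, and 31 and 12 without KO3. It was 14 and 29 without WT2 and 29 and 14 without WT3, and stayed at 20 and 23 without WT1. The log2 fold changes ran from -0.48 for Sdc4 to 0.43 for Smpd3, and every member had an adjusted p of 1 in edgeR.

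The intervals bound how large an unseen difference could be. The 95% interval of the fold change left out a 2-fold difference in either direction for 42 of the 43 members, beside 76.5% of all tested genes, and a 1.5-fold difference for 32, beside 39.7%. Smpd3 was the member whose interval reached past 2-fold. The median SE was 0.17 over the members and 0.23 over all tested genes on the log2 scale. The members had higher levels than most tested genes, and these shares and SEs were not compared with genes of like level.

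**Figure D2:**
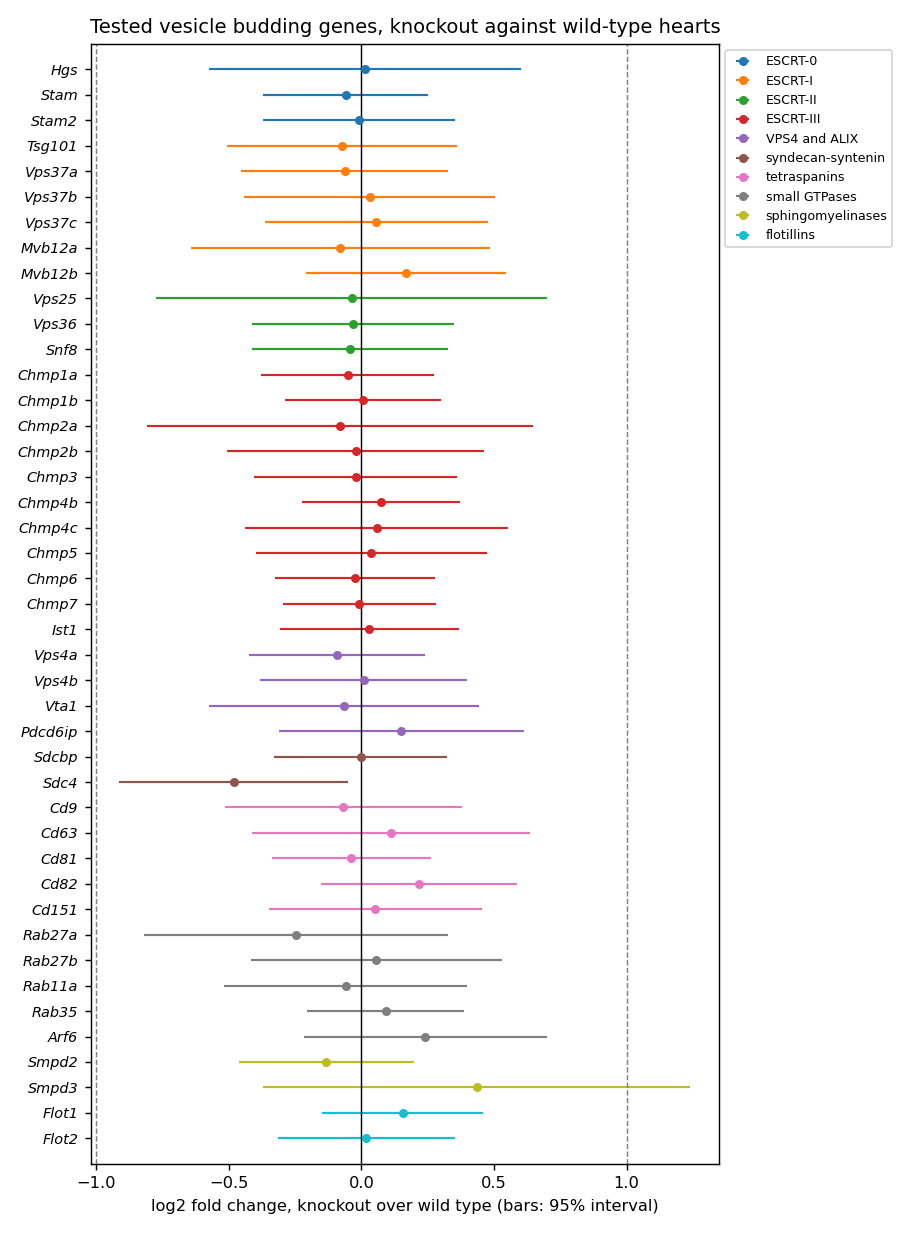
Log2 fold change, knockout over wild type, of the 43 tested genes with its 95% interval, coloured by role group. The dashed lines mark a 2-fold difference, which the interval of Smpd3 alone crosses, and Sdc4 is the gene whose interval, -0.91 to -0.05, leaves out 0.

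ESCRT-0, the cargo-gathering complex, gave 1 higher and 2 lower values among its 3 genes. Hgs, which encodes the ubiquitin- and lipid-binding HRS, had 25.2, 18.3 and 25.2 CPM in KO1 to KO3, against 24.4, 28.4 and 15.3 CPM in WT1 to WT3. KO2 was the low knockout heart and WT3 the low wild-type heart, and the groups overlapped throughout. Its log2 fold change was 0.01 (SE 0.25). Stam had 17.4, 14.9 and 15.7 CPM in knockout hearts, against 16.8, 17.3 and 15.9 CPM in wild-type hearts, with a log2 fold change of -0.06 (SE 0.13). A second annotated Hgs gene, which has no row used here, covers 97.2% of the exon bases of Hgs on the same strand, so the value of Hgs is uncertain.

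The 6 ESCRT-I genes in the table split into 3 higher and 3 lower, with log2 fold changes from -0.08 to 0.17. Tsg101, the subunit that binds ubiquitin and the PTAP motif of cargo adaptors, had 42.1, 58.0 and 43.02 CPM in KO1 to KO3, against 47.5, 44.2 and 58.9 CPM in WT1 to WT3. KO2 and WT3 were its 2 highest hearts, and its log2 fold change was -0.07 (SE 0.18). Mvb12b had the smallest p of the complex. Its values were 35.9, 29.4 and 33.7 CPM in knockout hearts, against 29.5, 33.8 and 24.9 CPM in wild-type hearts (log2 fold change 0.17, SE 0.16). Vps37b shares 32.9% of its exon bases with Hip1r on the opposite strand, and the strand setting of the counting is not given in the sources used here, so its value is uncertain.

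The 3 ESCRT-II genes all had lower values in knockout hearts, by little: the log2 fold changes lay between -0.04 and -0.03. Vps36, the ubiquitin-binding subunit, had 37.4, 48.5 and 34.4 CPM in KO1 to KO3, against 39.7, 39.9 and 43.1 CPM in WT1 to WT3 (log2 fold change -0.03, SE 0.16). Snf8 had 22.9, 28.7 and 22.8 CPM in knockout hearts, against 24.4, 23.4 and 28.9 CPM in wild-type hearts (-0.04, SE 0.16). In both genes the genotypes overlapped, with KO2 and WT3 on top, and the log2 fold change was above 0 without KO1, without KO3 or without WT3.

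The 11 ESCRT-III genes gave 5 higher and 6 lower values, with log2 fold changes from -0.08 to 0.07. Chmp4b had 122.5, 108.3 and 111.3 CPM in KO1 to KO3, against 106.2, 112.7 and 106.1 CPM in WT1 to WT3 (0.07, SE 0.13). Chmp2a, which caps the filament and engages VPS4, varied far more within each genotype than between them. It had 59.9, 115.9 and 67.3 CPM in KO1 to KO3, against 75.7, 66.2 and 115.4 CPM in WT1 to WT3, and its log2 fold change was -0.08 (SE 0.31). Chmp7, which recruits ESCRT-III to the nuclear envelope, varied little, with 53.9 ± 3.69 CPM in knockout and 54.2 ± 1.18 CPM in wild-type hearts (SD, n = 3 each).

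Of the disassembly and ALIX genes, 2 were higher and 2 lower. Vps4a had 57.1, 69.8 and 57.8 CPM in KO1 to KO3, against 63.1, 63.0 and 71.1 CPM in WT1 to WT3 (log2 fold change -0.09, SE 0.14). Pdcd6ip, which encodes ALIX, the protein that links syntenin to ESCRT-III, had 87.7, 60.6 and 82.6 CPM in KO1 to KO3, against 75.2, 76.6 and 56.3 CPM in WT1 to WT3 (0.15, SE 0.20). KO2 and WT3 were the lowest hearts for Pdcd6ip and the highest for Vps4a.

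Sdc4 was the member with the smallest p and the only one whose knockout values all lay below its wild-type values. It encodes syndecan-4, a heparan sulfate proteoglycan of the cell surface whose cytoplasmic tail binds syntenin. Its counts were 564, 435 and 377 in KO1 to KO3 and 548, 620 and 642 in WT1 to WT3. Scaled for library size these were 13.2, 14.99 and 9.87 CPM in knockout hearts, against 17.3, 16.5 and 19.2 CPM in wild-type hearts. KO3 was the lowest heart, and the nearest hearts across the genotypes were KO2 and WT2. Sdc4 averaged 12.7 ± 2.59 CPM in knockout and 17.7 ± 1.36 CPM in wild-type hearts (SD, n = 3 each), a log2 fold change of -0.48 (SE 0.18, 95% interval -0.91 to -0.05). It did not pass the test, with an unadjusted p of 0.0336 and an adjusted p of 1 in edgeR's quasi-likelihood fit across all genes.

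The lower values of Sdc4 were found among the hearts that stood apart and among the rest. KO2 had 14.99 CPM and WT3 had 19.2 CPM, while KO1 and KO3 had 13.2 and 9.87 CPM, against 17.3 and 16.5 CPM in WT1 and WT2. With KO2 and WT3 both left out the log2 fold change was -0.56 (SE 0.17, adjusted p = 0.686, edgeR), and with a separate term for them it was -0.49 (SE 0.13, adjusted p = 0.940, edgeR). Leaving out 1 heart at a time gave -0.62 without KO2 to -0.33 without KO3, and over the 16 alternatives the adjusted p lay between 0.613 and 1. The unadjusted p was above 0.05 without KO1, KO3, WT1 or WT3, at 0.0601 to 0.103. Sdcbp, which encodes syntenin itself, had no such order: it had 91.4, 89.7 and 74.4 CPM in KO1 to KO3, against 83.6, 82.2 and 90.3 CPM in WT1 to WT3 (log2 fold change -0.00, SE 0.14).

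The stretch before the start of Sdc4 is shown as the regulatory sequence of the member with the smallest p. It spans the 250 bases upstream of the RefSeq start on GRCm38.p6, chr2:164443189-164443438, minus strand. In GENCODE M21 it lies inside the annotated Sdc4 gene, which runs on to position 164443887. Capitals mark GGGCGG, the GC box bound by Sp1-family factors, which was searched on both strands.
Sdc4: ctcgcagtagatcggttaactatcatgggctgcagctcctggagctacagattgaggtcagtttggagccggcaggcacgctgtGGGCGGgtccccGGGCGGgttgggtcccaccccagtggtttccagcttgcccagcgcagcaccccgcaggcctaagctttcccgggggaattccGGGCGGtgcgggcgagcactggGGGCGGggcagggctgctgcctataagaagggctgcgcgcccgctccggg
The window holds 4 GC boxes, all on the gene's own strand, and is 68% G and C. A GC box was found in 32.7% of 32851 RefSeq promoter windows of this length and in 51.3% of the 39 windows of the 32 members that had one. The E-box CACGTG, which reads alike on both strands and is bound by the TFEB family, is not in the Sdc4 window. It was found in 6.02% of all windows and in 7.69% of the members' windows, those of Pdcd6ip, Rab27a and Smpd2. These are matches of letters and show no binding.

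The 5 tested tetraspanin genes gave 3 higher and 2 lower values. Cd82, a tetraspanin known as a suppressor of metastasis, had the smallest p of them, with 11.5, 9.92 and 10.1 CPM in KO1 to KO3, against 9.34, 9.99 and 7.82 CPM in WT1 to WT3 (log2 fold change 0.22, SE 0.16). Its groups touched only at KO2 and WT2. Cd151 had 219.1, 273.5 and 203.4 CPM in knockout hearts, against 217.1, 203.2 and 251.1 CPM in wild-type hearts (0.05, SE 0.17). Of the other exosome markers, Cd63 of late endosomes averaged 112.1 ± 20.0 CPM in knockout and 103.8 ± 26.9 CPM in wild-type hearts, and Cd81 averaged 227.7 ± 10.2 and 233.7 ± 2.502 CPM in knockout and wild-type hearts (SD, n = 3 each). Cd81 varied least of the 43 tested members, with its highest heart 1.08 times its lowest.

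Among the small GTPases 3 were higher and 2 lower. Arf6, which acts in membrane recycling and in syntenin-dependent exosome budding, had 39.8, 25.1 and 30.2 CPM in KO1 to KO3, against 23.9, 27.1 and 29.6 CPM in WT1 to WT3 (log2 fold change 0.24, SE 0.20). KO1 alone was far above the wild-type hearts, and KO2 lay below WT2. With KO2 and WT3 both left out, Arf6 joined Sdc4 as the members with an unadjusted p under 0.05, at a log2 fold change of 0.45 and an adjusted p of 0.704 in edgeR. Its value rested on KO1: without that heart the log2 fold change was 0.044 (unadjusted p = 0.815), and with any 1 heart left out it was at most 0.38. Rab11a, of recycling endosomes, had 69.2, 93.8 and 70.3 CPM in knockout hearts, against 76.7, 68.2 and 98.0 CPM in wild-type hearts (-0.06, SE 0.20). Rab27a averaged 1.85 ± 0.19 CPM in knockout and 2.18 ± 0.51 CPM in wild-type hearts, and Rab27b 1.999 ± 0.21 and 1.93 ± 0.15 CPM in knockout and wild-type hearts (SD, n = 3 each).

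Smpd3 had the largest upward value of the set and the fewest reads of the 43 tested members. It had 80, 34 and 66 reads in KO1 to KO3, against 49, 48 and 24 in WT1 to WT3, which came to 1.87, 1.17 and 1.73 CPM in knockout hearts, against 1.55, 1.28 and 0.716 CPM in wild-type hearts. The groups overlapped, since KO2 lay below WT1 and WT2. The log2 fold change was 0.43 (SE 0.34), with a 95% interval of -0.37 to 1.24. It moved with single hearts, to 0.18 without WT3 and 0.67 without WT1. Smpd2 had 22.4, 24.3 and 28.75 CPM in knockout hearts, against 26.6, 27.6 and 28.5 CPM in wild-type hearts (-0.13, SE 0.14). Smpd2 shares 20.3% of its exon bases with Mical1 on the opposite strand, so its value is uncertain.

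Flot1 was the one member whose knockout values all lay above its wild-type values, by a small margin. It had 175.8, 168.3 and 152.9 CPM in KO1 to KO3, against 150.5, 146.9 and 148.9 CPM in WT1 to WT3. KO3 was just above the wild-type hearts, which lay close together. The log2 fold change was 0.16 (SE 0.13), with an adjusted p of 1 in edgeR. Flot2 had 69.8, 66.9 and 73.9 CPM in knockout hearts, against 71.0, 76.8 and 60.2 CPM in wild-type hearts (0.02, SE 0.14). Groups without overlap thus came to 1 member with knockout above, beside 2.18% of all tested genes, and 1 with knockout below, beside 1.90%. In either direction this was 2 of 43 members, beside 4.07%.

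**Figure D3:**
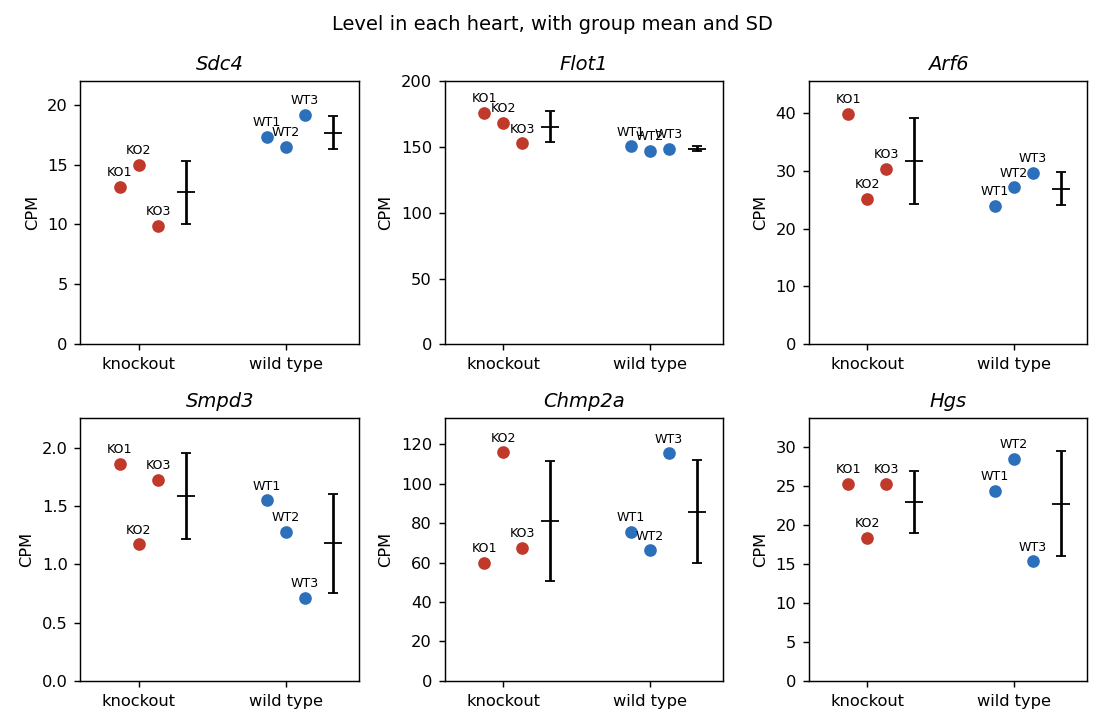
Level in CPM of 6 genes in each knockout heart (red) and wild-type heart (blue), with the group mean and SD in black. Sdc4 and Flot1 are the genes whose groups do not overlap, Arf6 is high in KO1 at 39.8 CPM, Smpd3 is under 2 CPM in every heart, and Chmp2a and Hgs set KO2 and WT3 apart in opposite directions.

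The 2 hearts that stood apart on all genes, KO2 and WT3, also shared their place in the order of hearts for most members. KO2 and WT3 were the 2 highest hearts for 21 of 43 members (48.8%), where 29.4% of all tested genes showed this order, and the 2 lowest for 10 members (23.3%), where 29.0% of all tested genes did. The genes on top in KO2 and WT3 included all 3 of ESCRT-II, 8 of 11 of ESCRT-III, Tsg101, Mvb12a, Vps37a and Vps37b of ESCRT-I, Vps4a with its cofactor Vta1, and the tetraspanins Cd9, Cd63 and Cd151. Those at the bottom in KO2 and WT3 included Hgs and Stam2 of ESCRT-0, Mvb12b and Vps37c of ESCRT-I, Pdcd6ip, Vps4b, Chmp4c and Smpd3. These orders were read off after the values were seen and carry no test.

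Exon length moved with this order. The median annotated exon length was 2741 bases for the 21 members on top in KO2 and WT3, and 5620 bases for the 10 at the bottom. Over all tested genes the corresponding medians were 2917 and 6326 bases. The shortest member, Chmp2a at 1162 bases, had the highest ratio of its highest to its lowest heart among the ESCRT genes, 1.93, and Chmp4c at 10087 bases was at the bottom in KO2 and WT3. Chmp7, Vps37a and Ist1, at 6302 to 7006 bases, were on top all the same. Vps37c, Flot2, Rab35 and Hgs, at only 2707 to 2980 bases, were at the bottom. The longest member, Rab27b at 10679 bases, was in neither group, and nor was Stam at 8386 bases. The part of exon length in the order of the hearts was not tested.

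**Figure D4:**
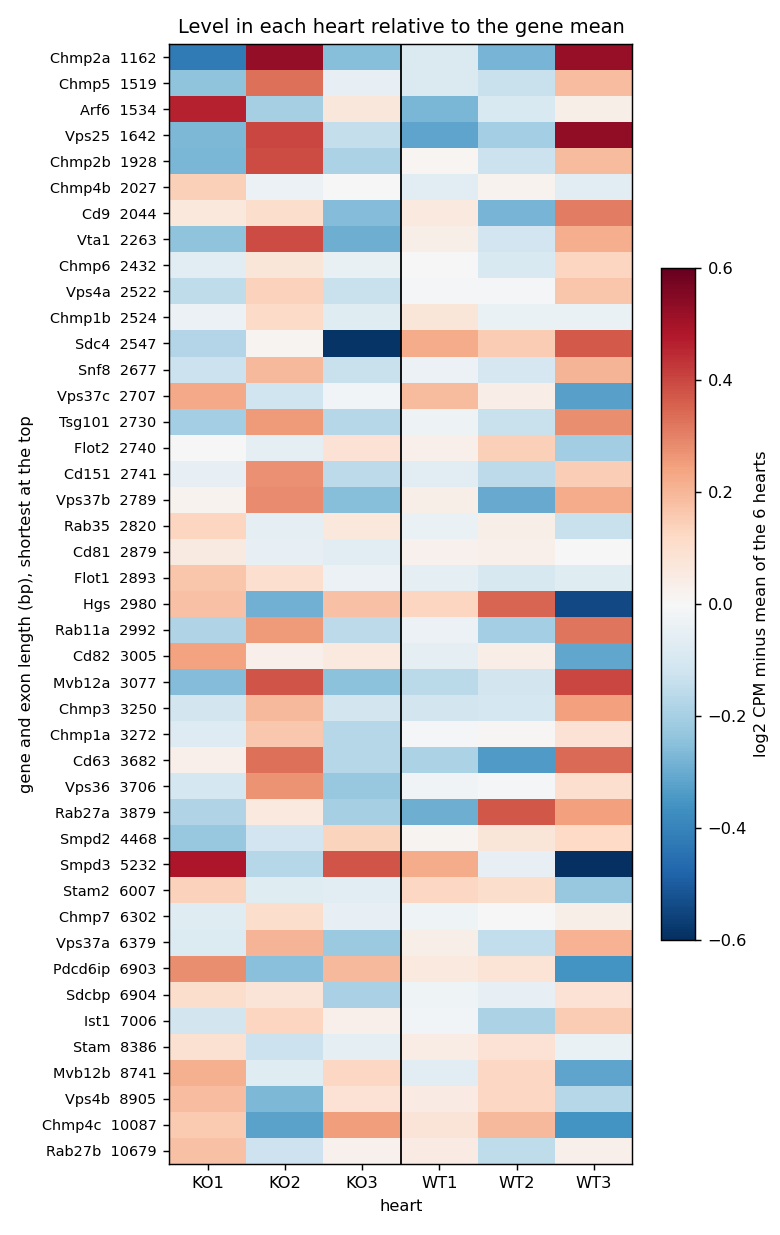
Log2 CPM of each tested gene in each heart minus the gene's mean over the 6 hearts, knockout hearts left of the black line and wild-type hearts right of it, with genes ordered by exon length from 1162 bases (Chmp2a) to 10679 bases (Rab27b). KO2 and WT3 are mostly red among the shorter genes and mostly blue for Mvb12b, Vps4b and Chmp4c near the bottom.

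**Figure D5:**
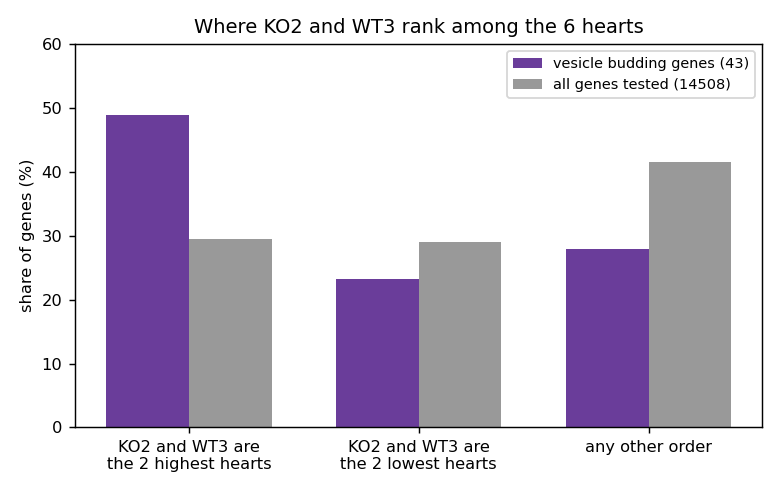
Share of genes, in percent, for which KO2 and WT3 were the 2 highest hearts, the 2 lowest hearts or neither, for the 43 vesicle budding genes (purple) and all 14508 tested genes (grey). The first share was 48.8% for the vesicle budding genes and 29.4% for all tested genes.

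Marker sums of several cell types also ordered these hearts, and 0 of the 73 marker genes tested in edgeR passed. DESeq2 and limma-voom called no marker gene either. At an unadjusted p under 0.05 edgeR held 3 of 7 tested cell cycle, 1 of 8 fibroblast and 1 of 3 tested Schwann cell markers, beside 1.23% of all tested genes. Of the tested markers, Lum and Birc5 had knockout values all above their wild-type values, beside 2.18% of all tested genes, and none had them all below. Summed over 8 genes, fibroblast markers stood at 1266, 488.3 and 938.5 CPM in KO1 to KO3, against 616.4, 815.2 and 586.6 CPM in WT1 to WT3. Endothelial markers summed to 708.9, 338.1 and 545.4 CPM in knockout hearts, against 468.1, 620.7 and 352.5 CPM in wild-type hearts, and macrophage markers to 271.7, 94.4 and 149.2 CPM in knockout hearts, against 148.4, 194.4 and 117.8 CPM in wild-type hearts. KO2 and WT3 had the lowest sums in all 3 lists, and no gene of these lists was at 0 in any heart. Gene by gene, they were the 2 lowest hearts for 4 of 8 fibroblast, 5 of 7 endothelial and 6 of 8 macrophage markers. They were the 2 highest for the ventricular light chains Myl2 and Myl3, which made up nearly all of the sum of 4 ventricular markers. That sum was 9515, 21070 and 11927 CPM in knockout hearts, against 14249, 11539 and 20565 CPM in wild-type hearts. The other ventricular markers had another order, with Irx4 lowest in WT3 and Hey2 highest in WT1. The 8 cardiomyocyte markers were split: KO2 and WT3 were the 2 highest hearts for 4 of them and the 2 lowest for 2. Those 2 were Myh6, at 9167 CPM in KO2 and 10042 CPM in WT3, and Ryr2, at 779 and 834 CPM. In bulk tissue, fewer cells of a type and less RNA per cell cannot be told apart. The part of exon length in the order of the marker genes was not tested. KO1 was the highest heart for 15 of 43 members (34.9%), Arf6, Flot1 and Smpd3 among them, beside 21.6% of all tested genes. It was the lowest for 9 members (20.9%), beside 19.3% of all tested genes. KO1 also had the highest sums of fibroblast, endothelial and macrophage markers. It was highest as well in epicardial and mesothelial markers, which summed to 37.8, 6.17 and 21.2 CPM in knockout hearts, against 13.9, 8.63 and 7.64 CPM in wild-type hearts. Cell cycle markers summed to 34.3, 4.996 and 10.4 CPM in knockout hearts, against 6.65, 6.26 and 2.36 CPM in wild-type hearts, and KO1 was highest there too. KO2 and WT3 had the 2 lowest sums of cell cycle markers and of epicardial and mesothelial markers as well. By single genes they were the 2 lowest hearts for 4 of 8 cell cycle and 2 of 8 epicardial and mesothelial markers. The log2 fold change was above 0 for all 7 tested cell cycle and all 8 epicardial and mesothelial markers, with KO1 the highest heart for each. The sums of all these lists overlapped between genotypes. So did smooth muscle and pericyte markers, at 692.9 to 803.5 CPM in knockout and 602.6 to 861.0 CPM in wild-type hearts. Red cell markers overlapped too, at 453.0 to 800.4 CPM in knockout and 525.0 to 759.3 CPM in wild-type hearts. Lymphocyte, Schwann cell and adipocyte markers each summed to less than 6 CPM in every heart. The part of cell makeup in the members' values was not tested.

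The spread across the 6 hearts was narrower for the members than for all tested genes. The ratio of the highest to the lowest heart was under 1.5 for 28 members (65.1%), where 37.65% of all tested genes were, and above 2 for 1 member, Smpd3 (2.33%), where 29.6% of all tested genes were. The median of this ratio was 1.40 over the members and 1.65 over all tested genes. The members also had higher levels, with a median of 10.6 CPM per kilobase against 2.47 for all tested genes. No comparison with genes of like level was made. Summed over all 44 genes the machinery came to 2146, 2333 and 2028 CPM in KO1 to KO3, against 2104, 2059 and 2271 CPM in WT1 to WT3, so that the genotypes overlapped and KO2 and WT3 were again the 2 highest.

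A further 40 genes of endosomal sorting and vesicle release outside the set also held no call. Of these, 38 were tested, 24 had higher and 14 lower values in knockout hearts, and 0 passed in either direction, with 0 at an unadjusted p under 0.05 in edgeR and 0 called by DESeq2 or limma-voom. Their median log2 fold change was 0.03. The smallest p of them was that of Pld2, a phospholipase D that acts with ARF6. It had 7.09, 5.69 and 7.12 CPM in KO1 to KO3, against 5.82, 6.15 and 3.97 CPM in WT1 to WT3 (log2 fold change 0.32, SE 0.22). Anxa2, an annexin of endosomal membranes, had 69.8, 40.4 and 50.1 CPM in knockout hearts, against 44.97, 41.6 and 46.8 CPM in wild-type hearts (0.27, SE 0.21), with KO1 far above the rest. Rab7, the GTPase of late endosomes, had 230.8, 254.5 and 213.5 CPM in knockout hearts, against 257.2, 233.8 and 318.0 CPM in wild-type hearts (-0.21, SE 0.17), and WT3 was its highest heart. Stx4a, a syntaxin of the cell surface, had 35.2, 42.2 and 42.8 CPM in knockout hearts, against 36.2, 33.6 and 37.3 CPM in wild-type hearts (0.17, SE 0.14). The knockout and wild-type values overlapped for each of the 38.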

How the data were processed

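Total RNA from 6 mouse hearts was purified with RNeasy columns and made into libraries with a NEBNext Ultra II kit, per the labels. The authors deposited a table of raw read counts, in whole numbers, for each gene in each heart. The submitters' processing notes name STAR, featureCounts, Subread 1.5.2, DESeq2 and the build GRCm38.p6, with no roles given. Not given in the sources used here are the annotation release, the strand setting and how reads shared between genes were counted, so genes with shared exons are uncertain. Groups and replicate numbers came from the labels, which name each sample as a separate heart.

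From the counts, 14508 genes passed filterByExpr of edgeR 4.0.16 (R 4.3.3) with a count of at least 10 and a total of at least 15. After TMM scaling, genotypes were compared by edgeR's quasi-likelihood test, with p-values adjusted over all genes tested by Benjamini-Hochberg at 0.05. The procedure was tested on simulated data. CPM used TMM-scaled library sizes. SEs were taken from the F statistic and the log2 fold change. Levels between genes were divided by exon length in GENCODE M21 on GRCm38, and promoter sequences are RefSeq's on GRCm38.p6. Depth ran from 29974501 to 41036626 counts per library. No libraries agreed within sampling noise: KO2 and WT3 were the closest, at a chi-square per degree of freedom of 7.31.

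The members, the related genes and the marker lists were chosen with earlier results of these data known. All members may be named. Values in every heart are given for those with the smallest p or the highest level of each role group, those without overlap, those under the filter and paralog pairs. Outside them the named genes are Arrdc4, the 4 related genes with the smallest p, and markers. Alternatives were other scalings and filters, DESeq2 1.42.0, limma 3.58.1 with voom, robust edgeR, a replicate block and each heart left out. A fit without both KO2 and WT3 and a fit with a term for them were added after seeing the data.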

Additional observations from a re-analysis of the deposited data

How the results depend on the processing

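No member and no related gene was called under any of 14 other settings chosen at the start or 2 added after seeing the data. Of the 20 members with values in every heart that were followed through them, 11 kept the sign of their log2 fold change in all 16. The others changed sign under at least 1 setting. Hgs was -0.00234 with DESeq2 size factors, -0.00244 with DESeq2 and -0.076 with KO2 and WT3 left out. Sdcbp was 0.01 with library size alone (0.00928) and without a filter (0.0102). With KO2 and WT3 left out, Cd151 was -0.00193 and Flot2 -0.050. With 1 heart left out at a time, the log2 fold change ran from -0.21 to 0.20 for Hgs, -0.24 to 0.055 for Tsg101, -0.19 to 0.069 for Vps36, -0.16 to 0.053 for Snf8, -0.43 to 0.19 for Chmp2a, -0.058 to 0.085 for Sdcbp, -0.084 to 0.14 for Cd151, -0.22 to 0.10 for Rab11a and -0.075 to 0.093 for Flot2. Among members that kept their sign it ran from 0.021 to 0.30 for Pdcd6ip, 0.061 to 0.28 for Mvb12b and 0.044 to 0.38 for Arf6. Arrdc4 ran from -7.58 to -6.68, and the genes called from 0 to 1. The cause of these changes was not tested.

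With KO2 and WT3 left out 2 genes were called, 1 higher and 1 lower, and 981 genes had an unadjusted p under 0.05, against 1126 without KO2, 624 with a term for KO2 and WT3 and 179 with all 6 hearts. With the replicate number as a replicate block 0 genes were called and 72 had such a p, Arrdc4 was at -7.00 (adjusted p = 0.0507, edgeR) and Sdc4 at -0.50 (unadjusted p = 0.0882). Deviations from the group means correlated at 0.18 for replicate 1, -0.63 for replicate 2 and -0.38 for replicate 3 across all tested genes, and KO2 correlated best with WT3, at 0.67. The largest differences among the hearts thus did not follow the replicate number. Since KO2 and WT3 stand apart, these correlations cannot show whether the numbers pair the hearts by design. Few reads limit the precision of Smpd3, with 24 to 80 per heart, and Tspan8, with 5 to 11.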
